A study of Homo sapiens with 6 samples.

Results

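The genes described here are 36 lysosome and autophagy genes, out of 60480 gene identifiers in the deposited count table. The rule that picks them names gene symbols and no measured value. The list was nevertheless drawn up with earlier results of these data known. All 36 were found, each under 1 identifier, and all 36 passed the filter on low counts. They cover lysosomal membrane proteins, cathepsins and other luminal proteins, subunits of the proton pump, the transcription factors TFEB and TFE3, and the machinery that builds autophagosomes. RNA-seq of poly(A) RNA was done on OE-19 cells, an epithelial line from an adenocarcinoma of the esophagogastric junction, and the question addressed was which transcripts change when IGF2BP3, an RNA-binding protein that reads m6A, is lowered. Control libraries (shControl, listed as Puro in the count table, 3 libraries) came from OE-19 cells with a control knockdown. IGF2BP3 KD libraries (shIGF2BP3, 3 libraries) came from OE-19 cells with an shRNA against *IGF2BP3*, and all 6 libraries come from cells kept in RPMI1640 medium with serum. Neither the hairpin used for each library nor whether the libraries of a group came from separate cultures is stated, so the p-values measure the spread between these libraries, which may be technical.

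Lysosomes are acidic compartments in which hydrolases degrade proteins, lipids and glycans, and a proton pump, the V-ATPase, keeps them acidic. Autophagy delivers cytoplasm to them: a kinase complex around ULK1 and a lipid kinase complex around BECN1 start a membrane, WIPI proteins bind the lipid made there, and conjugation enzymes attach ubiquitin-like ATG8 proteins to it. TFEB and TFE3 are transcription factors that bind a short element in the promoters of many lysosomal and autophagy genes.

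The libraries held 53424071 to 69989087 counts each, with TMM factors between 0.992 and 1.01. Values are given as CPM, the count scaled by the TMM-adjusted library size, in the order of replicates 1, 2 and 3. *IGF2BP3*, the target of the knockdown, was at 108, 106 and 112 CPM in control cells and at 14.4, 12.8 and 12.6 CPM in IGF2BP3 KD cells. The epithelial markers *EPCAM*, *KRT8*, *KRT18*, *KRT19*, *CDH1* and *ERBB2* had mean control levels from 473 CPM for *EPCAM* to 13074 CPM for *ERBB2*. Of these, *EPCAM* (0.15 on the log2 scale) and *ERBB2* (0.13) rose, *KRT8* (-0.057) and *KRT18* (-0.073) fell, and *KRT19* and *CDH1* were not called. Of 8 leukocyte and macrophage markers, *CD3E*, *CSF1R* and *AIF1* had 0 counts in every library, and the list without *CD68* and *LYZ* summed to at most 1.30 CPM. *CD68* and *LYZ*, left out of that sum, were expressed, with mean control levels of 35.8 and 2548 CPM. The 4 endothelial markers summed to at most 0.563 CPM. Of 6 fibroblast markers, *COL1A2* and *LUM* had 0 counts in every library. The fibroblast list summed to 21.2 to 24.5 CPM in control and 29.9 to 34.4 CPM in IGF2BP3 KD libraries, nearly all of it *COL1A1*, and its part in the results below was not tested.

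Of the 36 genes, 14 rose and 4 fell in IGF2BP3 KD cells at an adjusted p under 0.05 (the quasi-likelihood F test of edgeR, adjusted by Benjamini-Hochberg over 19778 genes), and 18 were not called. Of all genes tested, 20.4% were called, 9.87% as higher and 10.6% as lower. Among the 36 genes these shares were 50%, 38.9% and 11.1%. All 36 are coding genes, and coding genes were called more often than all genes tested. The shares over all genes are thus a low yardstick. The median log2 fold change of the 36 genes was 0.12, against 0.0098 over all genes tested. The 3 IGF2BP3 KD values lay entirely above or below the 3 control values in 25 of the 36 genes, or 69.4%, against 35.8% of all genes tested. The rises sat mainly in lysosomal proteins: of the 16 membrane proteins, cathepsins and other luminal proteins, 10 rose and 2 fell. Of the 15 autophagy genes, 4 rose and 2 fell, and none of the 3 V-ATPase subunits and neither transcription factor was called. Most changes were small, with a median size of 0.22 on the log2 scale among the 18 called genes. In whole-cell RNA, fewer cells that express a gene and less of its RNA per cell cannot be told apart.

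**Figure D1:**
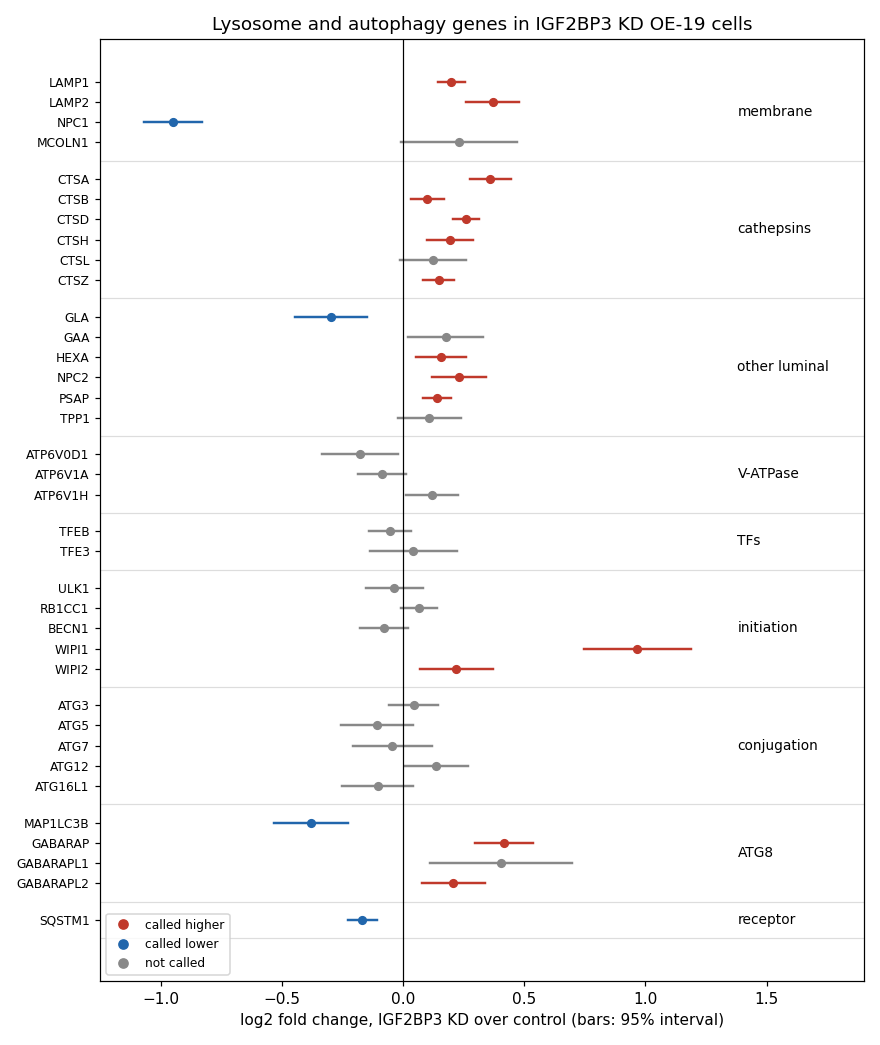
Log2 fold changes of the 36 genes, IGF2BP3 KD over control, grouped by role, with points for the estimates and bars for the 95% interval. Most lysosomal proteins sit to the right of 0, *NPC1* lies at -0.95 and *WIPI1* at 0.97, and the 2 transcription factors lie at -0.053 and 0.042.

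The promoters of several of these genes carry letters of the element that TFEB and TFE3 bind, and these sites are shown as a sequence feature found in some of them. RefSeq promoter windows (GRCh38.p14, 250 bases before to 50 bases after the start site) were found for 29 of the 36 symbols and not for *HEXA*, *LAMP2*, *ATP6V1A*, *PSAP*, *RB1CC1*, *CTSB* and *ATP6V1H*. The 8 letters TCACGTGA, which read the same on both strands and contain the E-box CACGTG, occurred in 6 of the 29 windows, or 20.7%, and in 1.18% of the windows of all 27305 symbols. CACGTG alone was in 7 of the 29, or 24.1%, and in 8.77% of all. The 27305 symbols outnumber the 19778 genes tested, so they are not matched to the 29 in type or level. *MCOLN1* and *GAA*, like *LAMP1*, each hold a second site of the 8 letters, at chr19:7522572-7522599 and chr17:80101494-80101521, not printed here. The capitals below mark the 8 letters, or CACGTG for *CTSD*, and each sequence is written 5′ to 3′ along the strand of the gene.
*LAMP1* (chr13:113297200-113297227, plus strand): acccgcgggaTCACGTGAcgcccgggcg
*LAMP1* (chr13:113297227-113297254, plus strand): gcggcgcagcTCACGTGAcaagcgctgc
*CTSA* (chr20:45891299-45891326, plus strand): gcgccggagtTCACGTGActcgtacaca
*CTSD* (chr11:1763959-1763984, minus strand): cggccgcgccCACGTGaccggtccgg
*MCOLN1* (chr19:7522599-7522626, plus strand): ggctaccgggTCACGTGAccgaggcaca
*GAA* (chr17:80101539-80101566, plus strand): ctcccgccggTCACGTGAcccgcctctg
*ATP6V0D1* (chr16:67481200-67481227, minus strand): ccccttatggTCACGTGAggcgcttgcg
*ATG3* (chr3:112561941-112561968, minus strand): gagtctagtgTCACGTGAggccccggtg
Of the 6 genes with TCACGTGA, *LAMP1* and *CTSA* rose, and *MCOLN1*, *GAA*, *ATP6V0D1* and *ATG3* were not called. *CTSD*, which rose, has CACGTG only. Genes with the 8 letters had a median log2 fold change of 0.19, and those without it, 0.11. Of the 4 genes that fell, *NPC1*, *GLA*, *MAP1LC3B* and *SQSTM1*, none has the letters CACGTG in this window. Most windows lack them: of the genes that rose and have a window, 3 hold CACGTG and 7 do not. Whether the letters go with the direction of change was not tested.

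The 4 lysosomal membrane proteins moved in both directions. *LAMP1* (ENSG00000185896, chromosome 13, 113297239 to 113323672 of hg38), an abundant glycoprotein that lines the lysosomal membrane, was at 310.2, 303 and 305 CPM in control and at 351, 349 and 355 CPM in IGF2BP3 KD libraries. The groups were apart by far more than their spread, although the log2 fold change was only 0.20 (standard error, SE, 0.025, adjusted p = 2.1e-04). *LAMP2* (ENSG00000005893, chromosome X, 120426148 to 120469365), its close relative and a receptor for autophagy mediated by chaperones, was at 129, 110.4 and 119.9 CPM in control and at 155, 154 and 155 CPM in IGF2BP3 KD libraries. Its log2 fold change was 0.37 (SE 0.050, adjusted p = 3.3e-04), and it overlaps no exon of another gene. *NPC1* (ENSG00000141458, chromosome 18, 23506184 to 23586506), which exports cholesterol from the lysosome, went the other way. It was at 66.9, 64.2 and 65.7 CPM in control and at 33.6, 32.3 and 36 CPM in IGF2BP3 KD libraries, a log2 fold change of -0.95 (SE 0.055, adjusted p = 7.5e-07). This was the largest fall of the 36 genes, to 0.518 of the control level, and leaving out any 1 library gave a fall of at least 0.91 on the log2 scale. *NPC1* shares 619 exonic bases, 6.38% of its own, with *RMC1* on the opposite strand, whose log2 fold change was -0.20. *MCOLN1* (ENSG00000090674), the calcium channel mucolipin, had a log2 fold change of 0.23 (95% interval -0.0082 to 0.47, adjusted p = 0.18) and was not called, although its groups did not overlap.

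Of the 6 cathepsins, 5 rose, and the log2 fold change of the sixth was above 0 as well. Cathepsins are the proteases of the lysosomal lumen. *CTSD* (ENSG00000117984, chromosome 11, 1752752 to 1764573), an aspartic protease, was at 968, 1001 and 1006 CPM in control and at 1177, 1169 and 1216 CPM in IGF2BP3 KD libraries. Every IGF2BP3 KD library was above every control library (log2 fold change 0.26, SE 0.024, adjusted p = 2.3e-05). *CTSD* shares 22.9% of its exonic bases on the same strand with ENSG00000250644, which was at 41.7 CPM in control libraries, and 23.4% with *PRADX* on the opposite strand, so its own count is uncertain too. *CTSA* (ENSG00000064601, chromosome 20, 45890144 to 45898949), a serine carboxypeptidase that also protects other hydrolases, had the largest rise of the 6. It was at 94.7, 100.2 and 99.5 CPM in control and at 130.2, 123 and 124 CPM in IGF2BP3 KD libraries, a log2 fold change of 0.36 (SE 0.039, adjusted p = 6.7e-05). *CTSH* (ENSG00000103811, chromosome 15, 78921058 to 78949574), an aminopeptidase, was at 107, 108 and 105 CPM in control and at 115, 125 and 127 CPM in IGF2BP3 KD libraries. Its groups were apart with replicate 1 the lowest of the IGF2BP3 KD libraries (log2 fold change 0.19, SE 0.043, adjusted p = 0.0084). *CTSZ* (ENSG00000101160, chromosome 20, 58985686 to 59008238), a carboxypeptidase, was at 206, 212 and 213 CPM in control and at 229, 236 and 234 CPM in IGF2BP3 KD libraries (log2 fold change 0.15, SE 0.029, adjusted p = 0.0037). *CTSZ* shares 31.7% of its annotated exonic bases with *NELFCD* on the opposite strand, which was at 4.80 CPM in control libraries. *CTSB* (ENSG00000164733, chromosome 8, 11842524 to 11869533), the most abundant cysteine protease of the list, was at 755, 813 and 811 CPM in control and at 844, 835 and 869.8 CPM in IGF2BP3 KD libraries. Its rise was the smallest called, 0.10 (SE 0.031, adjusted p = 0.041), and of the 6 leave-one-out fits only that without control replicate 2 kept the call. *CTSL* (ENSG00000135047), another cysteine protease, had a log2 fold change of 0.12 (95% interval -0.015 to 0.26) and overlapping groups. Together the 6 cathepsins took 2179, 2278 and 2279 CPM in control and 2543, 2536 and 2624 CPM in IGF2BP3 KD libraries.

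Among the other luminal proteins, 3 rose, *GLA* fell, and 2 were not called. *PSAP* (ENSG00000197746, chromosome 10, 71816298 to 71851251), the precursor of the saposins that help degrade sphingolipids, was at 606, 635 and 638 CPM in control and at 685, 694 and 692 CPM in IGF2BP3 KD libraries. *NPC2* (ENSG00000119655, chromosome 14, 74476192 to 74494177), which hands cholesterol to NPC1 in the lumen, was at 67.5, 61.1 and 63.2 CPM in control and at 73.3, 77.9 and 73.6 CPM in IGF2BP3 KD libraries. *HEXA* (ENSG00000213614, chromosome 15, 72340924 to 72376420), a subunit of the hexosaminidase that degrades gangliosides, was at 65.7, 60.1 and 64.7 CPM in control and at 70.9, 70.3 and 70.9 CPM in IGF2BP3 KD libraries. In all 3 genes the groups did not overlap, and the log2 fold changes were 0.14 (adjusted p = 0.0025), 0.23 (adjusted p = 0.0073) and 0.15 (adjusted p = 0.038), each adjusted over all genes tested. Of the 6 leave-one-out fits, only that without control replicate 1 kept the call of *HEXA*. *NPC2* thus rose while its partner *NPC1* fell. *GLA* (ENSG00000102393, chromosome X, 101393273 to 101408012), the alpha-galactosidase that removes galactose from glycolipids, was at 24.3, 23.7 and 22.2 CPM in control and at 18.6, 18.7 and 19.8 CPM in IGF2BP3 KD libraries. Its log2 fold change was -0.30 (SE 0.067, adjusted p = 0.0086), and it shares 8.99% of its exonic bases with *RPL36A* on the opposite strand, which had a log2 fold change of 0.16. *GAA*, which degrades glycogen, and *TPP1*, a peptidase that trims tripeptides, had log2 fold changes of 0.17 (95% interval 0.019 to 0.33) and 0.11 (95% interval -0.022 to 0.24), and neither was called.

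**Figure D2:**
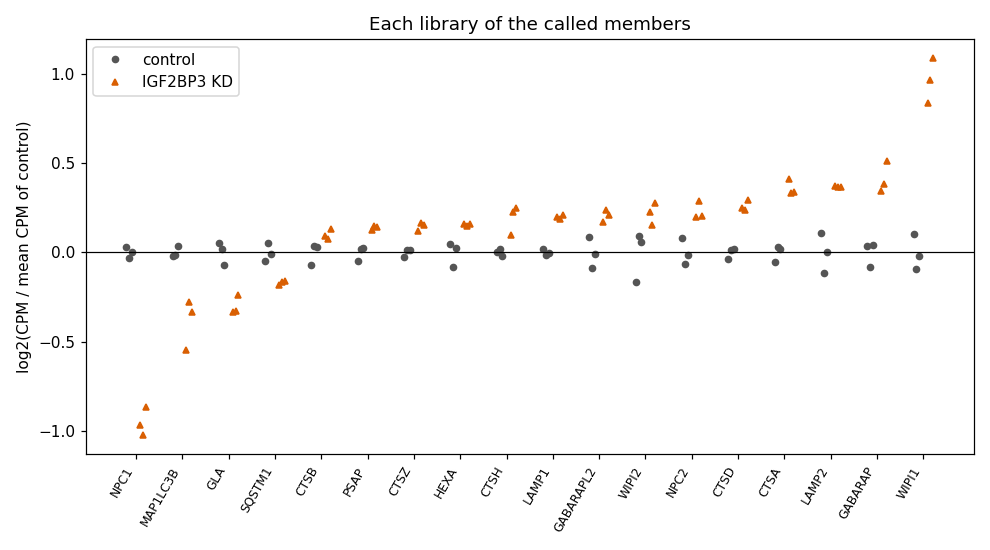
Level of each of the 18 called genes in each library, as log2 of its CPM over the mean CPM of the control libraries, with circles for control and triangles for IGF2BP3 KD libraries. In every gene drawn the triangles lie wholly above or wholly below the circles, from *NPC1* at the left to *WIPI1* at the right.

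The V-ATPase subunits and the transcription factors were not called. *ATP6V1A*, the catalytic subunit, had a log2 fold change of -0.086, *ATP6V1H*, a regulatory subunit, 0.12, and *ATP6V0D1*, in the membrane part of the pump, -0.18. Their adjusted p-values were 0.23, 0.12 and 0.12. *TFEB* (ENSG00000112561, chromosome 6, 41683978 to 41736259) was at 88.3, 92.5 and 87.7 CPM in control and at 86.5, 85.3 and 86.9 CPM in IGF2BP3 KD libraries, so that all 3 IGF2BP3 KD libraries lay just under the control libraries. Its log2 fold change was -0.053 (95% interval -0.14 to 0.033, adjusted p = 0.41). *TFE3* (ENSG00000068323, chromosome X, 49028726 to 49043410) was at 20.5, 25 and 22.9 CPM in control and at 25.1, 22.7 and 22.7 CPM in IGF2BP3 KD libraries, with overlapping groups. Its log2 fold change was 0.042 (95% interval -0.14 to 0.22, adjusted p = 0.79). The activity of both factors depends on their place in the cell, which these counts do not measure.

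Among the genes that start an autophagosome, both WIPI genes rose, and *ULK1*, *RB1CC1* and *BECN1* were not called. *WIPI1* (ENSG00000070540, chromosome 17, 68420948 to 68457513), which binds the phosphoinositide of the growing membrane, had the largest rise of the 36 genes. It was at 8.26, 7.22 and 7.60 CPM in control and at 13.7, 15 and 16.4 CPM in IGF2BP3 KD libraries, 1.95 times the control level. The log2 fold change was 0.97 (SE 0.10, adjusted p = 5.2e-05), and 0.90 to 1.02 with each library left out in turn. *WIPI1* shares 24.4% of its exonic bases with *ARSG* on the opposite strand, which was at 0.614 CPM in control libraries. *WIPI2* (ENSG00000157954, chromosome 7, 5190196 to 5233840), its relative that recruits ATG16L1, was at 45.8, 54.6 and 53.5 CPM in control and at 60.1, 57.1 and 62.1 CPM in IGF2BP3 KD libraries. Control replicate 1 was the lowest library, and the rise was 0.22 (SE 0.068, adjusted p = 0.042). Only the leave-one-out fit without control replicate 2 kept its call, and the log2 fold change was 0.14 without control replicate 1. *ULK1* (ENSG00000177169, chromosome 12, 131894622 to 131923150), the kinase at the top of the pathway, was at 66.2, 74.4 and 68.9 CPM in control and at 70.5, 68.1 and 65.7 CPM in IGF2BP3 KD libraries. *BECN1* (ENSG00000126581, chromosome 17, 42810134 to 42833350), of the lipid kinase complex, was at 90.6, 95.4 and 97.2 CPM in control and at 93.5, 88.1 and 86.3 CPM in IGF2BP3 KD libraries. In both genes the groups overlapped, and the 95% intervals of the log2 fold change were -0.15 to 0.081 and -0.18 to 0.019. *RB1CC1*, the scaffold of the ULK1 complex, had a log2 fold change of 0.064 (95% interval -0.011 to 0.14).

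None of the 5 conjugation enzymes was called. Their log2 fold changes were 0.043 for *ATG3*, the enzyme that transfers ATG8 proteins to lipid, -0.11 for *ATG5*, -0.045 for *ATG7*, the activating enzyme, 0.14 for *ATG12*, the protein attached to ATG5, and -0.10 for *ATG16L1*, which places the complex on the membrane. The adjusted p-values ranged from 0.14 for *ATG12* to 0.75 for *ATG7*. *ATG7* shares 18.1% of its exonic bases with *VGLL4* on the opposite strand, which fell by 0.69 on the log2 scale.

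The ATG8 proteins, which the conjugation enzymes attach to the autophagosome, moved in opposite directions. *MAP1LC3B* (ENSG00000140941, chromosome 16, 87383953 to 87404779), which encodes LC3B, was at 43.9, 44.1 and 45.8 CPM in control and at 30.6, 36.8 and 35.4 CPM in IGF2BP3 KD libraries. All 3 IGF2BP3 KD libraries were below the control libraries, replicate 1 the farthest (log2 fold change -0.38, SE 0.070, adjusted p = 0.0026). *GABARAP* (ENSG00000170296, chromosome 17, 7240008 to 7242449) was at 66.5, 61.3 and 66.6 CPM in control and at 82.3, 84.5 and 92.5 CPM in IGF2BP3 KD libraries, a log2 fold change of 0.42 (SE 0.055, adjusted p = 2.8e-04). It shares 35.4% of its exonic bases with ENSG00000262526 on the same strand, which was at 0.307 CPM in control libraries, so its own count is uncertain. *GABARAPL2* (ENSG00000034713, chromosome 16, 75566375 to 75577881) was at 38.9, 34.5 and 36.4 CPM in control and at 41.3, 43.3 and 42.3 CPM in IGF2BP3 KD libraries, a log2 fold change of 0.21 (SE 0.059, adjusted p = 0.029). Its call was kept in only 1 of the 6 leave-one-out fits, that without control replicate 1. *GABARAPL1* (ENSG00000139112, chromosome 12, 10212458 to 10223128), the least expressed of the 4, was at 6.34, 5.64 and 5.05 CPM in control and at 6.97, 7.30 and 8.28 CPM in IGF2BP3 KD libraries. Its log2 fold change of 0.40 (SE 0.13) narrowly missed the threshold (adjusted p = 0.055), and DESeq2 called it (adjusted p = 0.046). The 4 genes are related in sequence, and how reads that match several genes were counted is not stated. *SQSTM1* (ENSG00000161011, chromosome 5, 179806398 to 179838078), the receptor p62 that links ubiquitinated cargo to ATG8 proteins, was at 684, 732 and 703 CPM in control and at 623, 629 and 633 CPM in IGF2BP3 KD libraries. The IGF2BP3 KD libraries lay close together and below every control library (log2 fold change -0.17, SE 0.027, adjusted p = 0.0011). *SQSTM1* shares 21% of its exonic bases with *MRNIP* on the opposite strand, which was at 8.33 CPM in control libraries. It also shares 1.39% with *MGAT4B* on the opposite strand, which was at 219.6 CPM in control libraries and fell by 0.23 on the log2 scale.

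**Figure D3:**
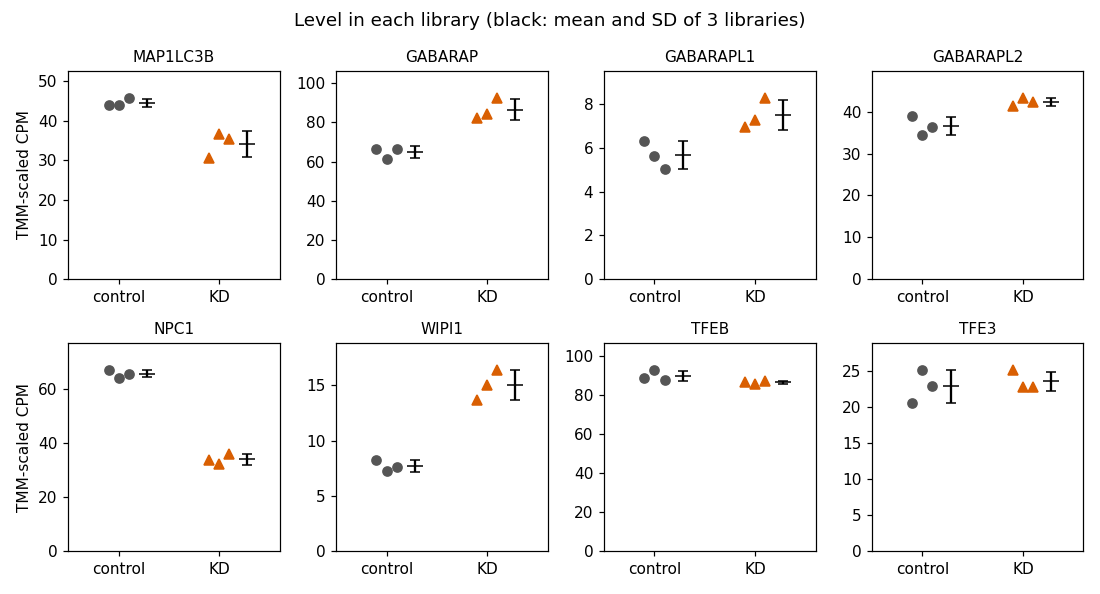
TMM-scaled CPM of the 4 ATG8 genes, *NPC1*, *WIPI1*, *TFEB* and *TFE3* in each library, with a point for each library and the mean with SD (n = 3) beside it. *MAP1LC3B* and *NPC1* are lower in IGF2BP3 KD (KD) libraries, *GABARAP* and *WIPI1* are higher, and *TFE3* overlaps between the groups.

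Across tested coding genes, those with the 7 letters GATTACT in the 3′ UTR had a median log2 fold change of -0.13, and those with ACACATC, 0.11. Genes without the word had medians of 0.0072 and -0.0079. Both words were noticed in these data, so these medians are not independent of that choice. The sites of the 36 genes are shown because the 2 words go with the direction of change over all genes. In the canonical transcripts of GENCODE v44, searched on the transcript strand only, GATTACT was in the 3′ UTR of 2 of the 36 genes, or 5.56%, and of 7.69% of 13939 tested coding genes. ACACATC was in 3 of the 36, or 8.33%, and in 9.53% of all. Capitals mark the word, and coordinates are those of hg38.
*TPP1* (chr11:6613445-6613471, minus strand): acccttcaagGATTACTggatagaatt
*ATG5* (chr6:106185784-106185810, minus strand): tagggcatagGATTACTtgtctcagaa
*WIPI1* (chr17:68421549-68421575, minus strand): gacattgtatACACATCatgctattta
*ATG12* (chr5:115828716-115828742, minus strand): tagtaatgtaACACATCgagtgaatga
*SQSTM1* (chr5:179837383-179837409, plus strand): gtcccagatcACACATCatcatcgaag
Neither gene with GATTACT was called, with log2 fold changes of 0.11 for *TPP1* and -0.11 for *ATG5*. None of the 4 genes that fell holds this word in its canonical 3′ UTR. Of the 3 genes with ACACATC, *WIPI1* rose, *SQSTM1* fell and *ATG12* was not called. The other 13 genes that rose hold neither word there.

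Divided by the length of the canonical transcript, control levels of the 36 genes ranged from 3.01 CPM per kilobase for *GABARAPL1* to 483 for *CTSD*. The next highest were *SQSTM1* at 249, *PSAP* at 228, *CTSB* at 212, *CTSZ* at 140.1 and *LAMP1* at 113 CPM per kilobase. The lowest after *GABARAPL1* were *MCOLN1* at 3.72 and *WIPI1* at 4.03. The transcript that OE-19 cells use may be shorter or longer than the canonical one, which would move these levels but not the comparison between groups. Of the 36 genes, 20 share exonic bases with another gene in GENCODE v44, 11 of the 18 called ones among them. Of the 16 genes without such overlap, 7 rose and 0 fell, and 9 were not called by edgeR's test. That is 43.75% called, against 20.4% of all genes tested, a low yardstick for these coding genes. The 4 genes that fell all share bases with a neighbor, as do several that rose. The shared part was 6.38% in *NPC1*. In *MAP1LC3B* it was only 1.19%, with *FBXO31*, which had a log2 fold change of -0.011. Any part of overlap in these calls was not tested.

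A further 132 lysosome and autophagy genes were examined, none of them among the 36, and all 132 were tested. They were chosen by textbook role, but with earlier results of these data known. Of these, 31 rose and 9 fell, or 23.5% and 6.82%, against 9.87% and 10.6% of all genes tested. All 132 are coding genes as well, and coding genes were called more often than all genes tested. Of 13939 tested coding genes with a 3′ UTR, 72 with GATTACT and 1747 without it rose. In the same genes, 376 with it and 1621 without it fell. The shares over all genes tested, also where the lists below are set against them, are thus a low yardstick. The median log2 fold change of the 132 genes was 0.055. Of the 33 other acid hydrolases, 10 rose and 1 fell, with a median of 0.13, and 26 had a log2 fold change above 0. The rises included *CTSF*, a cysteine cathepsin (0.65), *FUCA1*, a fucosidase (0.42), and *CTSC*, a dipeptidyl peptidase (0.23). *GALC*, which removes galactose from galactosylceramide, fell from 52.3 ± 2.20 to 31.6 ± 1.14 CPM (SD, n = 3), a log2 fold change of -0.73 (SE 0.056, adjusted p = 6.0e-06 from edgeR's test).

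Of 17 other lysosomal membrane or membrane-linked proteins, 6 rose and 2 fell. *MFSD1*, a transporter of the lysosomal membrane, rose from 34.4 ± 2.46 to 71.9 ± 2.48 CPM (SD, n = 3), the largest rise of the 132 genes, at 1.06 (SE 0.060, adjusted p = 6.5e-07 from edgeR's test). *LAPTM4B*, a protein of the late endosomal and lysosomal membrane, rose by 0.34 on the log2 scale. *OSTM1*, the partner of the chloride transporter CLCN7, fell by 0.69. Of 9 genes of mannose 6-phosphate sorting, which brings hydrolases to the lysosome, 3 rose and 1 fell. Both receptors of this tag rose, *IGF2R* by 0.28 (adjusted p = 4.7e-04) and *M6PR* by 0.22 (adjusted p = 0.0017). Of 14 other V-ATPase subunits, 2 rose and 1 fell, with a median of -0.015, and 21.4% were called. Of 13 genes listed under docking of mTORC1 on the lysosome, *RRAGA*, *RRAGC* and *LAMTOR3* rose and none fell, or 23.1% called. Not all of the 13 dock it themselves: the list also holds the transcription factor *MITF*, at 1.04 CPM in control libraries. *MITF* had a log2 fold change of 0.36 and was not called (adjusted p = 0.44 from edgeR's test). In both lists the share called was near the 20.4% of all genes tested.

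Of 22 wider genes of autophagosome formation, 2 rose and 4 fell, or 27.3% called, near the 20.4% of all genes tested, and the median was -0.057. *PIK3R4*, the scaffold of the lipid kinase complex that holds BECN1, fell from 46.2 ± 0.874 to 30.3 ± 1.12 CPM (SD, n = 3), a log2 fold change of -0.61 (SE 0.054, adjusted p = 1.7e-05 from edgeR's test). *ATG13*, *UVRAG* and *WDR45B* fell by 0.17, 0.22 and 0.20 on the log2 scale. Of 11 autophagy receptors, *NCOA4*, *OPTN* and *BNIP3L* rose and none fell, which is also 27.3% called. *NCOA4*, the receptor that delivers ferritin to lysosomes, rose from 119 ± 4.75 to 199 ± 1.75 CPM (SD, n = 3), with the smallest p of the 132 genes (log2 fold change 0.74, SE 0.036, adjusted p = 2.3e-07 from edgeR's test). *SQSTM1*, the receptor among the 36 genes, had fallen. Of 13 genes of fusion with the lysosome, *VAMP8* and *VPS41* rose and none fell, or 15.4% called, below the 20.4% of all genes.

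**Figure D4:**
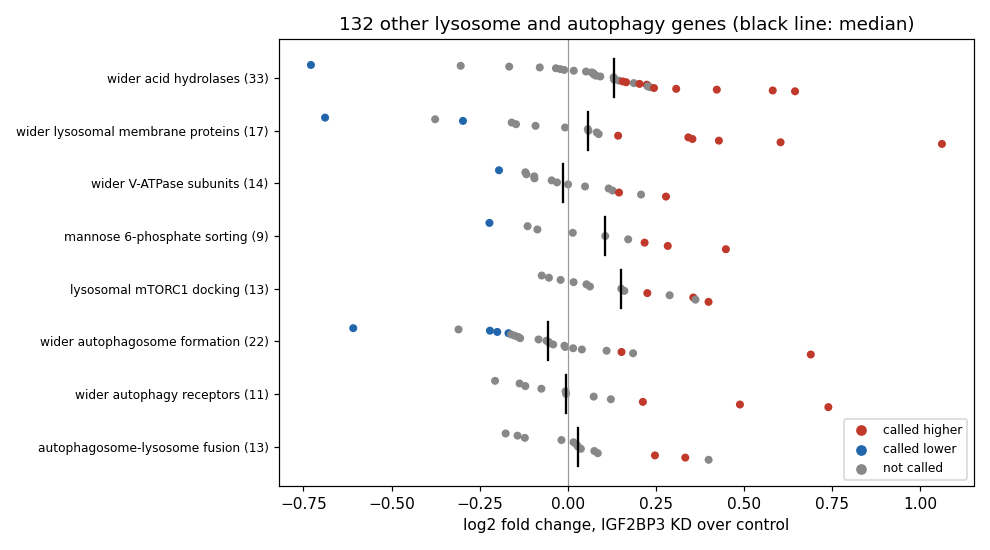
Log2 fold changes of the 132 other genes, IGF2BP3 KD over control, with a point for each gene, colored by call, and a black line for the median of each list. Medians run from -0.057 for autophagosome formation to 0.15 for mTORC1 docking, and *MFSD1* lies farthest to the right at 1.06.

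The same letters were looked for in the wider genes. TCACGTGA was in 9 of the 100 promoter windows found for them. Of these 9 genes, *MFSD1*, *IGF2R*, *NAGPA* and *CLN3* rose, none fell and 5 were not called. Among the wider genes whose window lacks TCACGTGA, 19 rose and 7 fell. Whether TCACGTGA goes with the direction of change in the wider genes was not tested. ACACATC was in the 3′ UTR of 13 of the 132 genes, of which 5 rose and 0 fell by edgeR's test, *MFSD1* and *NCOA4* among them. Of all 1328 tested coding genes with this word, 373 rose and 142 fell, and whether the 13 differ from them was not tested. GATTACT was in 11, of which *OSTM1*, *TMEM192* and *ATP6V1D* fell and *M6PR* rose. Of all 1072 with it, 376 fell and 72 rose, so the 3 falls of 11 are no larger a share than among all genes. The sites of the 2 strongest risers and of *OSTM1*, chosen after their values were seen, read as follows, with the word in capitals.
*MFSD1* (chr3:158829008-158829034, plus strand): aatgggcttaACACATCgttggtttga
*NCOA4* (chr10:46006535-46006561, minus strand): gctgattatcACACATCatgagctgag
*OSTM1* (chr6:108044479-108044505, minus strand): ataggcatttGATTACTattctagact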

How the data were processed

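Poly(A) RNA of OE-19 cells was sequenced as paired reads of 150 bases. The submitters' processing notes name fastp, HISAT2, featureCounts and hg38, and the authors deposited raw counts per gene without normalization. Tool versions, the annotation release and the strand setting of the counting are not given in the sources used here. The library kit is directional, but counts of overlapping genes stay uncertain.

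Columns were assigned to libraries by name. The table lists 60480 identifiers, and 132 repeated entries were left out. The chi-square per degree of freedom between libraries, for genes averaging 50 counts or more, was 9.86 to 17.6 within groups, so each library was kept as a replicate of its own. The test was that of edgeR 4.0.16 under R 4.3.3 (TMM, filterByExpr at 10 counts and a total of 15, glmQLFit, glmQLFTest, no block), with Benjamini-Hochberg adjustment over 19778 genes and a threshold of 0.05. DESeq2 1.42.0, the package the study used, was an alternative, as were RLE scaling, other filters, coding genes only, a threshold of 0.01, the replicate block and each library left out. Standard errors come from the log2 fold change and its F, and 95% intervals use the moderated degrees of freedom. With 3 libraries per group the smallest p of an exact two-sided permutation test for 1 gene is 0.1.

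The 36 genes, the wider lists and the words searched were chosen with earlier results of these data known. Values per library are given for all called members and for *TFEB*, *TFE3*, *ULK1* and *BECN1* (those of *GABARAPL1* were added after its values were seen), and of the wider genes the 10 with the smallest p, apart from some not reported here, and other called genes are named. Positions come from GENCODE v44, promoters from RefSeq (GRCh38.p14), and computations used Python 3.11.15 with pandas 2.3.3.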

Additional observations from a re-analysis of the deposited data

How the results depend on the processing

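Over all alternatives, between 10 and 15 of the 36 genes were called higher and 4 lower in every one, and between 21 and 37 of the 132 wider genes higher and between 6 and 12 lower. With each library left out in turn, 14 of the 18 calls held in all 6 fits, and those of *CTSB*, *HEXA*, *WIPI2* and *GABARAPL2* did not. These fits hold fewer libraries. The same 4 calls were lost without a low-count filter and at a threshold of 0.01. Without a library, the log2 fold change crossed 0 in *TFE3* (-0.031 to 0.11), *ULK1* (-0.076 to 0.0098) and *ATG7* (-0.12 to 0.026), none of them called. RLE scaling shifted the median log2 fold change by -0.0041 and kept all 18 calls, as did DESeq2. *IGF2BP3* was called under RLE scaling, both other filters, the block, DESeq2 and with each library left out. Replicate numbers are only labels: deviations of libraries with the same number correlated at -0.0017, -0.032 and 0.0092. With the replicate number as a block, 13 members were higher and 4 lower (30 and 10 of the wider genes), *IGF2BP3* had a log2 fold change of -3.04, and the only member call lost was *GABARAPL2* (adjusted p = 0.052). *GABARAPL1*, at an adjusted p of 0.055, was called by DESeq2, with protein-coding genes only, with at least 10 counts in every library, and without control replicate 1.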

Other observations

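Among genes read only as cell type markers, *CD68*, a lysosomal glycoprotein related to the LAMP proteins and named here after its values were seen, was at 32.8, 37.1 and 37.5 CPM in control and at 48.7, 54.1 and 53 CPM in IGF2BP3 KD libraries (log2 fold change 0.54, adjusted p = 1.9e-04 by the quasi-likelihood F test of edgeR). The other leukocyte markers were near 0 apart from *LYZ*, which encodes the secreted enzyme lysozyme. *LYZ* was at 2548 ± 132 CPM in control and 2534 ± 39.6 CPM in IGF2BP3 KD libraries (SD, n = 3) and was not called. *COL1A1*, named for the same reason, rose by 0.50 on the log2 scale, while *COL1A2* had 0 counts in every library.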
